A study of Mus musculus with 6 samples.

Results

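The mitochondrial carriers of the SLC25 family were followed in mouse heart after treatment with either of the oral anticoagulants rivaroxaban and dabigatran. The genes were taken by name, as every protein-coding row whose symbol begins with Slc25a and a number, which gave 43 of the 16229 listed genes. Of these, 40 had a mean of at least 0 on the log2 CPM scale, where CPM is a gene's reads scaled to the size of its library, and were among the 12981 genes tested. The other 3, Slc25a21, Slc25a31 and Slc25a43, had between 4 and 41 reads in a library and are given by level only.

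Most SLC25 carriers are small proteins of the inner mitochondrial membrane that exchange metabolites between the cytosol and the matrix. Each carries a narrow set of substrates, among them ADP and ATP, phosphate, di- and tricarboxylates, acylcarnitines, amino acids, nucleotides and cofactors. Heart muscle makes most of its ATP in mitochondria and is known for a high content of the ADP/ATP and phosphate carriers.

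All 6 libraries came from hearts of male C57BL/6 mice aged 8 to 10 weeks, and the labels place the sampled tissue in the infarcted and neighbouring area of the heart. The 3 groups held 2 libraries each. The untreated group was numbered 8 and 9 by the labels. The rivaroxaban group, numbered 14 and 15, received 3 mg/kg of this inhibitor of factor Xa for 7 days. The dabigatran group, numbered 10 and 12, received 10 mg/kg of this inhibitor of factor IIa (thrombin) for 7 days. Surgery in the untreated mice is not described in the labels. Separate mice behind the 2 libraries of a group are not named there either, and the p-values then cover only the spread between these libraries, which may be technical. With 2 libraries against 2 an exact permutation test cannot go below p = 0.333, so all tests below are limma fits across the 12981 genes, with p-values adjusted over all of them by the Benjamini-Hochberg method.

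The libraries held between 27176892 and 43798222 reads. Tested carriers had between 23 and 317917 reads in a library, so the lowest of them are measured with far less precision than the highest. Summed levels of 5 cardiomyocyte markers were 70215 to 70846 CPM in untreated, 67192 to 68133 CPM in rivaroxaban and 69278 to 70075 CPM in dabigatran libraries. Summed mesothelial markers were 59.2 to 63.1 CPM in untreated, 25.5 to 33.1 CPM in rivaroxaban and 34.3 to 37.8 CPM in dabigatran libraries. With each drug all 4 of them lay below the untreated libraries. The limma test called 4 of 4 lower with rivaroxaban and 2 of 4 with dabigatran, against 0.986% and 0.501% of all genes. The 2 of 5 erythroid markers that are listed summed to 0.402 to 1.05 CPM in untreated, 1.81 to 2.34 CPM in rivaroxaban and 2.29 to 3.36 CPM in dabigatran libraries. Smooth muscle markers summed to 319 to 343 CPM in untreated, 296 to 309 CPM in rivaroxaban and 324 to 363 CPM in dabigatran libraries, and the 4 listed adipocyte markers to 28.7 to 32.3, 26.8 to 27.2 and 30.8 to 32.5 CPM. Nearly all of the adipocyte sum was Cidea, at 25.7 to 31.7 CPM. Adipoq, Plin1 and Cidec each had at most 0.548 CPM in any library and were not tested. Endothelial, fibroblast and macrophage marker sums overlapped between each drug and the untreated group. Single markers of other lists were called too. With rivaroxaban 1 of 5 endothelial markers was called lower, Emcn (log2 difference -0.43, limma adjusted p = 0.00336). So was 1 of 4 smooth muscle markers, Myh11 (-0.34, adjusted p = 0.0416), against 0.986% of all genes. The endothelial list went both ways with rivaroxaban, 2 above and 3 below 0, and all 4 smooth muscle markers were below 0. Erythroid Slc4a1, the 1 tested marker of its list, rose with dabigatran (2.12, adjusted p = 0.0487), against 1.38% of all genes called higher. Listed T cell markers summed to at most 1.58 CPM in any library, and no listed marker of the 9 cell type lists was at 0 in every library. The part of these differences in the results below was not tested.

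Levels of different carriers were compared per length, as CPM per kilobase (kb) of merged exons. Slc25a4, the ADP/ATP carrier of heart and skeletal muscle, stood far above the rest with a mean of 2955 CPM per kb over the 6 libraries, which was 66.6% of the summed level of the 43 genes. Slc25a3, the phosphate carrier, had 409 CPM per kb. Slc25a11, which exchanges oxoglutarate for malate, had 334 CPM per kb, and Slc25a5, the ADP/ATP carrier found in many tissues, had 219.8 CPM per kb. These were the 4 carriers above 100 CPM per kb. A further 12 lay from 10 to 100 CPM per kb, 22 from 1 to 10 and 5 below 1, including all 3 that were not tested. The median carrier had 6.21 CPM per kb, against 3.42 for all listed protein-coding genes.

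**Figure D1:**
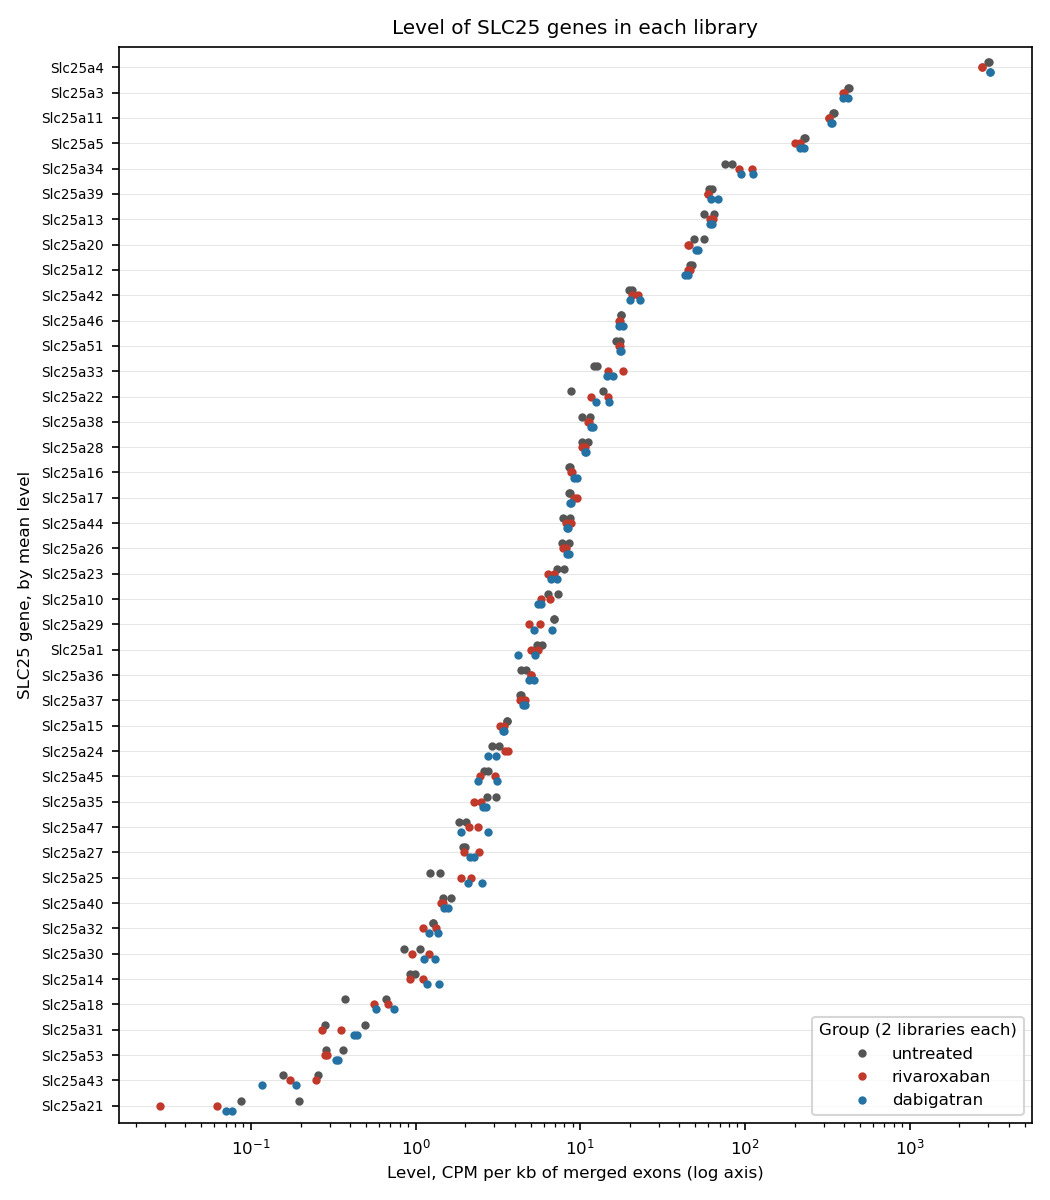
Level of the carriers in each library (1 of the 43 is not drawn), as CPM per kb of merged exons on a log axis, ordered by the mean over the 6 libraries and coloured by group. Slc25a4 lies at the top at a mean of 2955 CPM per kb, and for most genes the 6 points fall close together beside the distance between genes.

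Neighbours in this order could overlap over the libraries, as did Slc25a39 (mean 62.1 CPM per kb) and Slc25a13 (61.9), while the 4 most abundant carriers kept apart from all others. The level of Slc25a4 was 13.4 times that of Slc25a5 on average, with a range of 12.8 to 14.4 over the libraries. Per length, the aspartate-glutamate carrier Slc25a12 had 0.737 of the level of its paralogue Slc25a13. This order rests on the merged exons, which span 7342 bases for Slc25a12 and 3798 for Slc25a13. Before division by length Slc25a12 was the higher in every library, with a mean of 8.39 against 7.88 log2 CPM. Orders and shares of different carriers given per length thus depend on the length used. Slc25a34, a carrier whose substrate is not settled, was the most abundant of those outside the named transport classes at 94.5 CPM per kb.

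A single carrier passed the test with rivaroxaban, and the same carrier passed it with dabigatran. Slc25a25 encodes a calcium-dependent exchanger of ATP-Mg and phosphate, which changes the content of adenine nucleotides in the matrix. It lies on the minus strand of chromosome 2 at chr2:32414487-32451445 (GRCm38, GENCODE M21, ENSMUSG00000026819, protein-coding). It is a low carrier in these hearts, at 1.30 CPM per kb in untreated, 2.03 in rivaroxaban and 2.31 in dabigatran libraries.

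RefSeq lists 3 start sites for Slc25a25, and the 250 bases before each are shown because this was the carrier that rose and because the 3 starts differ in the cyclic AMP response element (CRE), the 8 letters TGACGTCA to which CREB-type factors are known to bind. Capitals mark the element. The windows are on the minus strand of GRCm38.p6, at chr2:32451471-32451720, chr2:32431152-32431401 and chr2:32424067-32424316, and are written 5′ to 3′ so that the last base is next to the start.
Slc25a25 start 1: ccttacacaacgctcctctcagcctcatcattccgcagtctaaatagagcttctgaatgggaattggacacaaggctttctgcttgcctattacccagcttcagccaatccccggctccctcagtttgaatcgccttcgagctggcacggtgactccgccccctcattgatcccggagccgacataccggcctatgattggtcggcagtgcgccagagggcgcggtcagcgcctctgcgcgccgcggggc
Slc25a25 start 2: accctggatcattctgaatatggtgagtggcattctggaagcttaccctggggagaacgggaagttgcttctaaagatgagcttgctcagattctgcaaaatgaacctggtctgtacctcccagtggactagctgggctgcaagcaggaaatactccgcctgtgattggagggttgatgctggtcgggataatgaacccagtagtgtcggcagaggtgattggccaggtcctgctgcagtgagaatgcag
Slc25a25 start 3: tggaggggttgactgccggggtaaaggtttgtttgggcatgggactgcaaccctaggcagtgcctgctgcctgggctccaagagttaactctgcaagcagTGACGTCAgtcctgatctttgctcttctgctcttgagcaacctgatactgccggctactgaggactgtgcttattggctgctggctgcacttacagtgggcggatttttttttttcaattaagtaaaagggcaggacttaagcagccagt
The third window holds 1 full CRE, whose first base lies 150 bases before the start, and the other 2 windows hold none. Both strands were searched in windows of the same length at 32851 start sites of all RefSeq genes in the table, and 1.55% of them held TGACGTCA. The table matched 34 of the 43 carriers with 44 windows, and 2 of these windows held a full CRE, 1 of Slc25a25 and 1 of Slc25a36. Its shorter core TGACG, which every full CRE contains on both strands, was in 17.8% of all windows. It was in 11 of the 44 carrier windows, which belong to 10 of the 34 carriers. A match describes the letters of a window and is not a measurement of binding, and the deposited table sums reads over a gene, so the start in use was not analysed here.

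Slc25a25 stood at 3.26 and 3.46 log2 CPM in the untreated libraries (272 and 355 reads). It stood at 3.89 and 4.10 log2 CPM in the rivaroxaban libraries (538 and 499 reads). In the dabigatran libraries it stood at 4.32 and 4.03 log2 CPM (535 and 712 reads). Both untreated libraries were below all 4 treated ones, while the 2 drug groups overlapped.

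Slc25a25 rose with rivaroxaban by 0.63 on the log2 scale (SE 0.12, 95% interval 0.36 to 0.90), which is 1.55-fold, with a limma adjusted p of 0.0246. It rose with dabigatran by 0.82 on the log2 scale (SE 0.12, 95% interval 0.54 to 1.09), which is 1.76-fold, with a limma adjusted p of 0.01. The comparisons share the untreated libraries and are not independent of each other. In bulk tissue, fewer cells of a type and less RNA per cell cannot be told apart, and this holds for every difference given here.

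The Slc25a25 calls rest on few libraries. With rivaroxaban the call was lost without untreated replicate 8 (log2 difference 0.53, limma adjusted p = 0.158) and without rivaroxaban replicate 15 (0.53, adjusted p = 0.244). With dabigatran it was lost without untreated replicate 8 (0.72, limma adjusted p = 0.073) and without dabigatran replicate 10 (0.67, adjusted p = 0.0635). Both calls were also lost where the variance was fitted without its trend on expression (adjusted p = 0.159 and 0.169), a setting in which no gene of the 12981 passed. Over all 13 settings tried, the adjusted p ran from 0.0138 to 0.244 with rivaroxaban and from 0.00503 to 0.169 with dabigatran, and 10 settings kept each call.

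Slc25a25 shares 989 bases with Naif1, a gene on the opposite strand, and whether the reads were counted by strand is not given in the sources used here. Naif1 stood at 2.94 and 2.83 log2 CPM in untreated, 2.95 and 3.06 in rivaroxaban and 3.13 and 3.15 in dabigatran libraries. Its log2 differences were 0.12 with rivaroxaban (limma adjusted p = 0.635) and 0.25 with dabigatran (adjusted p = 0.324), smaller than those of Slc25a25.

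**Figure D2:**
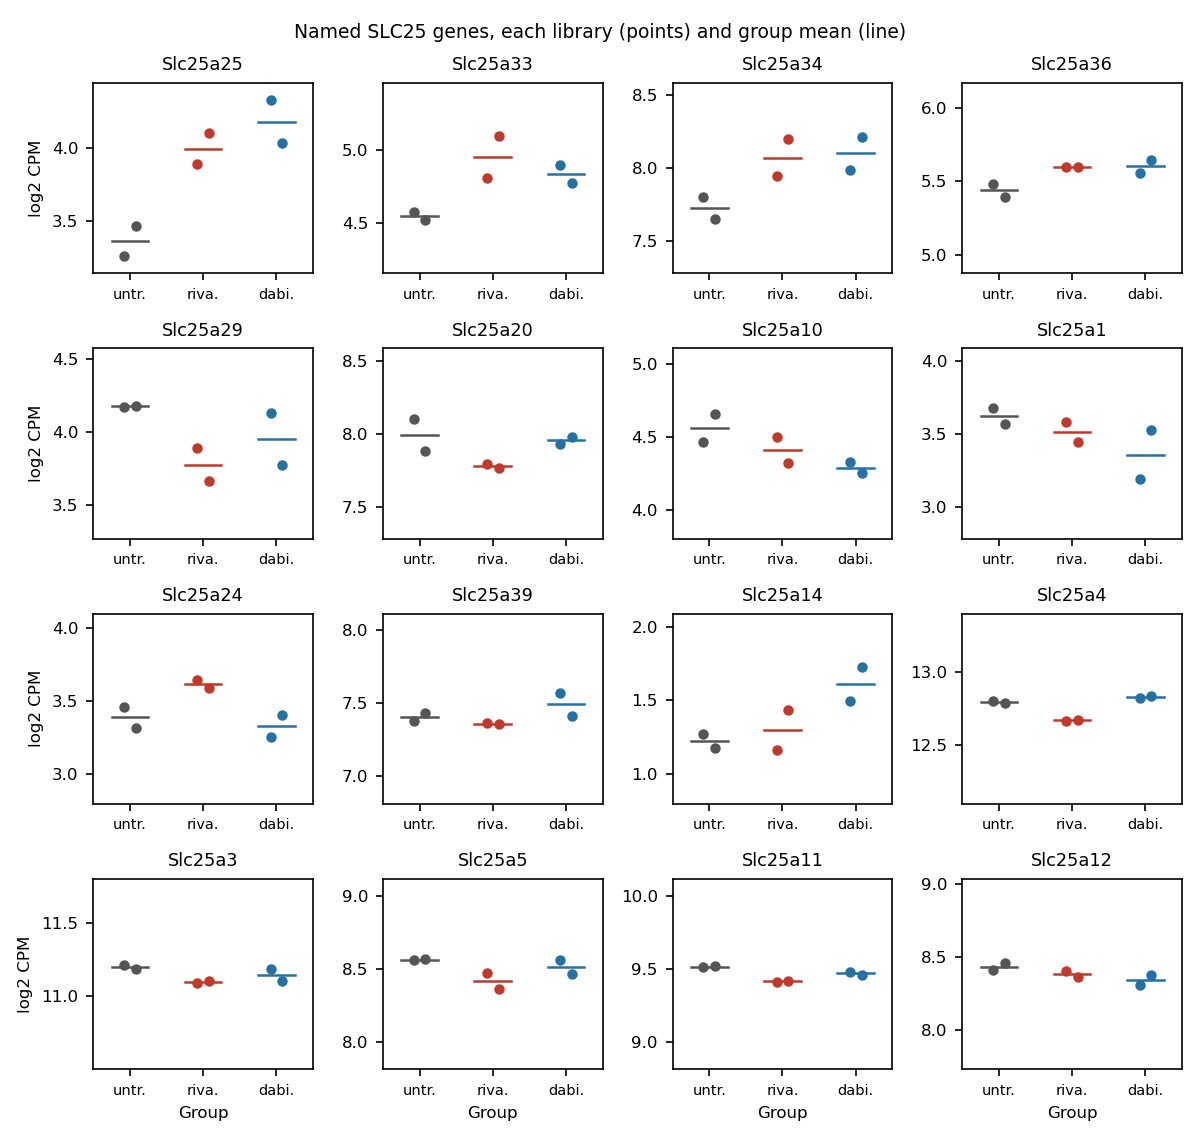
Log2 CPM of the named carriers in each of the 6 libraries, with 1 panel per gene, a point per library and a line at each group mean, and all panels spanning the same log2 range. In the Slc25a25 panel both untreated points lie below all 4 treated points, and in most other panels the groups lie closer together.

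Slc25a25 has the paralogues Slc25a23 and Slc25a24 among the measured carriers of ATP-Mg and phosphate, and the make-up of this trio differed between groups. The trio was singled out because it holds the called carrier, so its shares partly restate that call and are no further test. Slc25a25 gave 9.82% and 12.1% of the summed CPM per kb of the trio in the untreated libraries, 15.1% and 18.0% in the rivaroxaban libraries and 21.3% and 16.7% in the dabigatran libraries. Every treated library was above both untreated ones. Slc25a23 gave 64.4% and 62.7% in untreated, 55.8% and 53.1% in rivaroxaban and 55.4% and 58.5% in dabigatran libraries, so that it remained the largest of the trio in each library. The summed level itself ranged from 11.5 to 12.4 CPM per kb over the 6 libraries, with both low and high values in the untreated group.

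Neither paralogue passed the test. Slc25a24 stood at 3.46 and 3.32 log2 CPM in untreated, 3.64 and 3.59 in rivaroxaban and 3.25 and 3.41 in dabigatran libraries, with log2 differences of 0.23 with rivaroxaban (limma adjusted p = 0.303) and -0.06 with dabigatran (adjusted p = 0.842). Its rivaroxaban libraries were above the untreated ones and its dabigatran libraries overlapped them. Slc25a23 had log2 differences of -0.18 (adjusted p = 0.272) and -0.13 (adjusted p = 0.499).

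**Figure D3:**
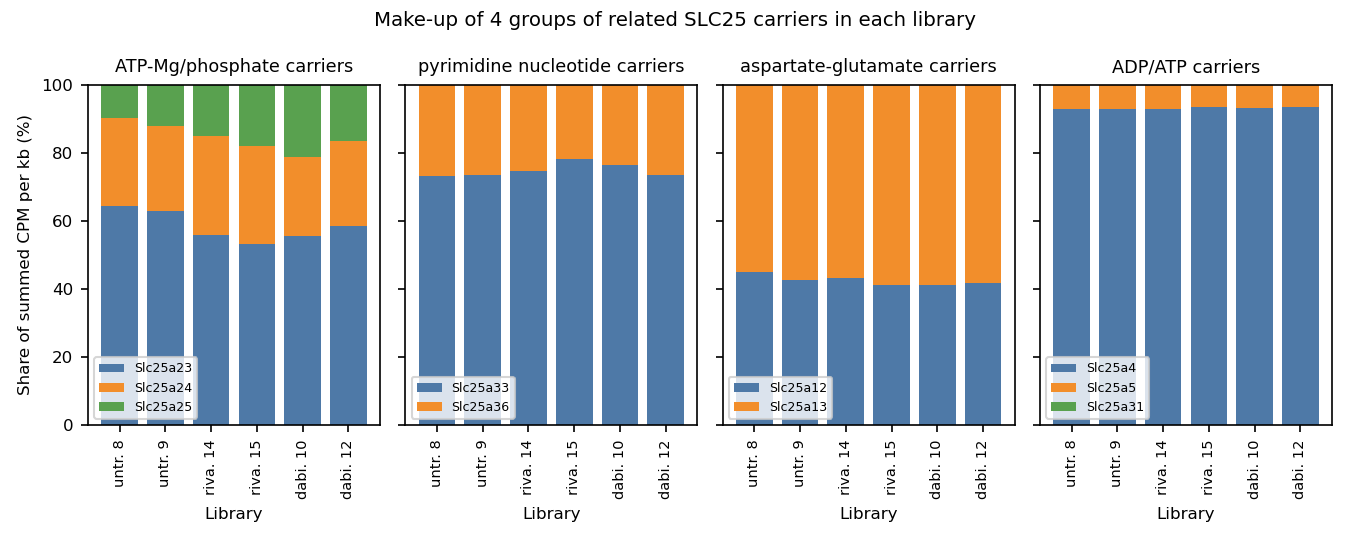
Share of each paralogue, in percent of the summed CPM per kb of its set, in each of the 6 libraries for 4 sets of carriers with a common substrate. In the ATP-Mg/phosphate set the share of Slc25a25 runs from 9.82% to 12.1% in untreated and from 15.1% to 21.3% in treated libraries. Slc25a4 gives 92.7% to 93.5% of the ADP/ATP set.

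The other paralogue sets kept their make-up more closely. Slc25a4 gave 92.7% to 93.5% of the ADP/ATP carriers, with the testis carrier Slc25a31 at no more than 0.0153% of them. Slc25a22 gave 94.4% to 96.4% of the glutamate carriers and Slc25a18 3.63% to 5.59%, of a summed level of 9.15 to 15.4 CPM per kb. Slc25a28 gave 69.8% to 71.9% of the mitoferrins, which bring iron into the matrix, and Slc25a39 97.5% to 97.9% of the glutathione carriers. Per length, Slc25a12 gave 41.1% to 45.0% of the aspartate-glutamate carriers, with the highest share in untreated replicate 8. Among the pyrimidine nucleotide carriers Slc25a33 gave 73.0% to 78.2%, with the highest share in rivaroxaban replicate 15.

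Of the 8 tested carriers of nucleotides and phosphate, 1 was called higher with each drug, which was Slc25a25 (1.47% of all genes were called higher with rivaroxaban and 1.38% with dabigatran). The differences of the 8 were 4 above and 4 below 0 with each drug. An unadjusted p under 0.05 was found for 6 of the 8 with rivaroxaban and 3 with dabigatran, against 17.2% and 14.7% of all genes. Those with rivaroxaban went both ways, with Slc25a25, Slc25a33 and Slc25a36 above 0 and Slc25a4, Slc25a5 and Slc25a23 below. Those with dabigatran were Slc25a25, Slc25a33 and Slc25a36, all above 0. The pyrimidine nucleotide carrier Slc25a33, at chr4:149744036-149774277, stood at 4.58 and 4.52 log2 CPM in untreated, 4.81 and 5.10 in rivaroxaban and 4.90 and 4.78 in dabigatran libraries. All 4 treated libraries were above both untreated ones, and the drug groups overlapped. The log2 difference was 0.40 with rivaroxaban (1.32-fold, 95% interval 0.19 to 0.62, limma adjusted p = 0.0614) and 0.29 with dabigatran (1.22-fold, adjusted p = 0.186). Neither passed the test, though that with rivaroxaban did so without rivaroxaban replicate 14 (0.55, adjusted p = 0.0287), and without rivaroxaban replicate 15 it was 0.26 (adjusted p = 0.441).

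Slc25a36, the other pyrimidine nucleotide carrier, lies at chr9:97074961-97111157 and stood at 5.49 and 5.40 log2 CPM in untreated, 5.60 and 5.60 in rivaroxaban and 5.56 and 5.65 in dabigatran libraries. The treated libraries were again above the untreated ones, by a small margin. Its log2 difference was 0.16 with either drug (limma adjusted p = 0.254 with rivaroxaban and 0.279 with dabigatran).

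The abundant ADP/ATP and phosphate carriers differed little. Slc25a4, at chr8:46206797-46211284, stood at 12.80 and 12.79 log2 CPM in untreated, 12.66 and 12.67 in rivaroxaban and 12.82 and 12.83 in dabigatran libraries. The replicates lay close together, the rivaroxaban pair was the lowest and the dabigatran pair the highest. The log2 difference was -0.13 with rivaroxaban (95% interval -0.25 to -0.01, limma adjusted p = 0.265). With dabigatran it was 0.03 (adjusted p = 0.828), and this sign changed to -0.03 under quantile normalisation. The cardiomyocyte marker sum was lowest in the rivaroxaban libraries too, and its part in the values of Slc25a4 was not tested. The single markers of this sum went both ways with rivaroxaban, and none was called. Of the 5, 3 were below 0 and 2 above, Ckm at 0.07 and Ryr2 at 0.01 on the log2 scale.

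Slc25a5 stood at 8.56 in both untreated libraries, 8.47 and 8.36 in rivaroxaban and 8.56 and 8.46 log2 CPM in dabigatran libraries, with log2 differences of -0.15 (limma adjusted p = 0.213) and -0.05 (adjusted p = 0.733). Slc25a3, which supplies phosphate for ATP synthesis, stood at 11.21 and 11.19 in untreated, 11.09 and 11.11 in rivaroxaban and 11.19 and 11.10 log2 CPM in dabigatran libraries. Its log2 differences were -0.10 (adjusted p = 0.355) and -0.06 (adjusted p = 0.677). For both genes the rivaroxaban libraries were below the untreated ones, and the dabigatran libraries reached from the rivaroxaban values to the untreated ones.

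The 4 tested carriers of carboxylates and acylcarnitines all had differences below 0 with each drug, and none passed the test. Their median log2 difference was -0.13 with rivaroxaban and -0.15 with dabigatran, and 1 of the 4 had an unadjusted p under 0.05 in each comparison. Slc25a20, which brings acylcarnitines into the matrix for fatty acid oxidation, stood at 8.10 and 7.88 log2 CPM in untreated, 7.79 and 7.77 in rivaroxaban and 7.93 and 7.98 in dabigatran libraries. The rivaroxaban libraries were the lowest, and the dabigatran pair lay between the 2 untreated values. The log2 difference was -0.22 with rivaroxaban (0.861 of the untreated level, limma adjusted p = 0.131) and -0.04 with dabigatran (adjusted p = 0.841). Without untreated replicate 9 the rivaroxaban difference was -0.32 and passed (adjusted p = 0.0295). Without untreated replicate 8 it was -0.11 (adjusted p = 0.531), and the dabigatran difference turned to 0.07.

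Slc25a10, the dicarboxylate carrier, stood at 4.46 and 4.66 log2 CPM in untreated, 4.50 and 4.32 in rivaroxaban and 4.33 and 4.25 in dabigatran libraries, with log2 differences of -0.15 (limma adjusted p = 0.445) and -0.27 (adjusted p = 0.211). Slc25a1, the citrate carrier that feeds lipid synthesis, stood at 3.68 and 3.57 in untreated, 3.58 and 3.45 in rivaroxaban and 3.20 and 3.53 log2 CPM in dabigatran libraries, with log2 differences of -0.11 (adjusted p = 0.686) and -0.26 (adjusted p = 0.352). Without dabigatran replicate 10 the latter was -0.10, and without replicate 12 it was -0.43. In both genes the dabigatran libraries lay below the untreated ones and the rivaroxaban libraries overlapped them. Slc25a11 stood at 9.51 and 9.52 log2 CPM in untreated, 9.41 and 9.42 in rivaroxaban and 9.48 and 9.46 in dabigatran libraries, with log2 differences of -0.10 (adjusted p = 0.309) and -0.04 (adjusted p = 0.727). Its replicates were within a narrow distance of each other, so that the groups were apart although the differences were small.

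Among the 8 carriers of amino acids none passed the test. Their median log2 differences were 0.04 with rivaroxaban and 0.03 with dabigatran, and 1 and 0 of them had an unadjusted p under 0.05. Slc25a29, a carrier of basic amino acids, stood at 4.17 and 4.18 log2 CPM in untreated, 3.89 and 3.67 in rivaroxaban and 4.13 and 3.77 in dabigatran libraries. All 4 treated libraries were below the untreated pair, dabigatran replicate 10 only just. The log2 difference was -0.40 with rivaroxaban, the lowest of the 40 carriers (0.758 of the untreated level, limma adjusted p = 0.123), and -0.23 with dabigatran (adjusted p = 0.435). The latter was -0.40 without dabigatran replicate 10 and -0.046 without replicate 12. Slc25a29 lies on chromosome 12 at chr12:108825873-108835883 on the minus strand, 162 bases from Slc25a47 on the plus strand, and Slc25a47 had log2 differences of 0.22 (adjusted p = 0.547) and 0.24 (adjusted p = 0.576).

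Slc25a12 and Slc25a13 carry aspartate out of the matrix and glutamate into it, as a step of the malate-aspartate shuttle that moves reducing equivalents. Slc25a12 stood at 8.41 and 8.46 log2 CPM in untreated, 8.41 and 8.36 in rivaroxaban and 8.31 and 8.37 in dabigatran libraries, with log2 differences of -0.05 (limma adjusted p = 0.66) and -0.09 (adjusted p = 0.44). The values of all 3 groups lay within a narrow band. Slc25a13 had log2 differences of 0.05 (adjusted p = 0.748) and 0.04 (adjusted p = 0.83).

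The 7 carriers of cofactors, which include those of NAD (Slc25a51), coenzyme A (Slc25a42) and S-adenosylmethionine (Slc25a26), had median log2 differences of 0.04 with rivaroxaban and 0.05 with dabigatran. None passed the test, and 1 and 0 had an unadjusted p under 0.05. Slc25a51 had log2 differences of 0.04 (limma adjusted p = 0.74) and 0.05 (adjusted p = 0.709), and Slc25a42 had 0.08 (adjusted p = 0.62) and 0.09 (adjusted p = 0.646).

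The 4 carriers of iron and glutathione ranged from -0.10 to 0.04 with rivaroxaban and from -0.01 to 0.09 with dabigatran on the log2 scale, and none had an unadjusted p under 0.05. Slc25a39, which brings glutathione into the matrix, stood at 7.38 and 7.43 log2 CPM in untreated, 7.36 and 7.36 in rivaroxaban and 7.57 and 7.41 in dabigatran libraries, with log2 differences of -0.05 (limma adjusted p = 0.735) and 0.09 (adjusted p = 0.554). Its dabigatran libraries overlapped the untreated ones. Slc25a37, or mitoferrin-1, is used heavily by erythroid cells in making haem, and its log2 differences were 0.04 (adjusted p = 0.806) and 0.07 (adjusted p = 0.739). The erythroid marker sum was higher in all 4 treated libraries, and its part in these values was not tested.

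The 3 carriers that resemble uncoupling proteins, Slc25a14, Slc25a27 and Slc25a30, had differences above 0 with each drug, with medians of 0.14 and 0.35 on the log2 scale. None passed the test or had an unadjusted p under 0.05. Slc25a14 stood at 1.27 and 1.17 log2 CPM in untreated, 1.16 and 1.43 in rivaroxaban and 1.50 and 1.73 in dabigatran libraries. Its dabigatran libraries were above the untreated ones and its rivaroxaban libraries were on both sides of them, at levels where counting error is large. The log2 differences were 0.07 (limma adjusted p = 0.879) and 0.39 (adjusted p = 0.38), and that with rivaroxaban turned to -0.06 without rivaroxaban replicate 15. Slc25a46, a member of the family that sits in the outer membrane and takes part in mitochondrial dynamics, had log2 differences of -0.03 (adjusted p = 0.804) and 0.01 (adjusted p = 0.979).

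Of the 5 tested carriers whose substrates are not settled, Slc25a34 showed the widest separation. It lies at chr4:141618824-141623821 and stood at 7.80 and 7.65 log2 CPM in untreated, 7.94 and 8.20 in rivaroxaban and 7.99 and 8.21 in dabigatran libraries. Every treated library was above both untreated ones, and the drug groups overlapped. Per length this is a step from 79.3 CPM per kb in untreated to 101 in rivaroxaban and 103 in dabigatran libraries. The log2 difference was 0.35 with rivaroxaban (1.27-fold, limma adjusted p = 0.0845) and 0.38 with dabigatran (1.30-fold, adjusted p = 0.0742), and neither passed. The rivaroxaban difference passed when the fit used only the 4 libraries compared (adjusted p = 0.049), and without dabigatran replicate 10 (adjusted p = 0.0495) or 12 (adjusted p = 0.049). It was 0.22 without rivaroxaban replicate 15 (adjusted p = 0.519).

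Counted over the family, 1 of 40 carriers was called with rivaroxaban, or 2.5%, against 2.46% of all 12981 genes (1.47% higher and 0.986% lower). With dabigatran it was again 1 of 40, against 1.88% of all genes (1.38% higher and 0.501% lower). These shares are near the background and are no result about the family. An unadjusted p under 0.05 was found for 11 carriers with rivaroxaban (27.5%, against 17.2% of all genes) and for 5 with dabigatran (12.5%, against 14.7%).

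The differences were small and lay on both sides of 0. With rivaroxaban they ran from -0.40 to 0.63 on the log2 scale, 20 above and 20 below 0, and the median was 0.011 against 0.0050 for all genes. With dabigatran they ran from -0.27 to 0.82, 26 above and 14 below 0, and the median was 0.03 against 0.0026. In each of these comparisons 29 of the 40 carriers were within 0.2 of 0. The drug and untreated libraries did not overlap for 22 carriers with rivaroxaban (55%, against 50.6% of all genes) and for 21 with dabigatran (52.5%, against 43.6%). With rivaroxaban 8 of the 40 carriers were higher and 14 lower (20% and 35%, against 26.1% and 24.5% of all genes). With dabigatran 13 of the 40 were higher and 8 lower (32.5% and 20%, against 22.8% and 20.8% of all genes).

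**Figure D4:**
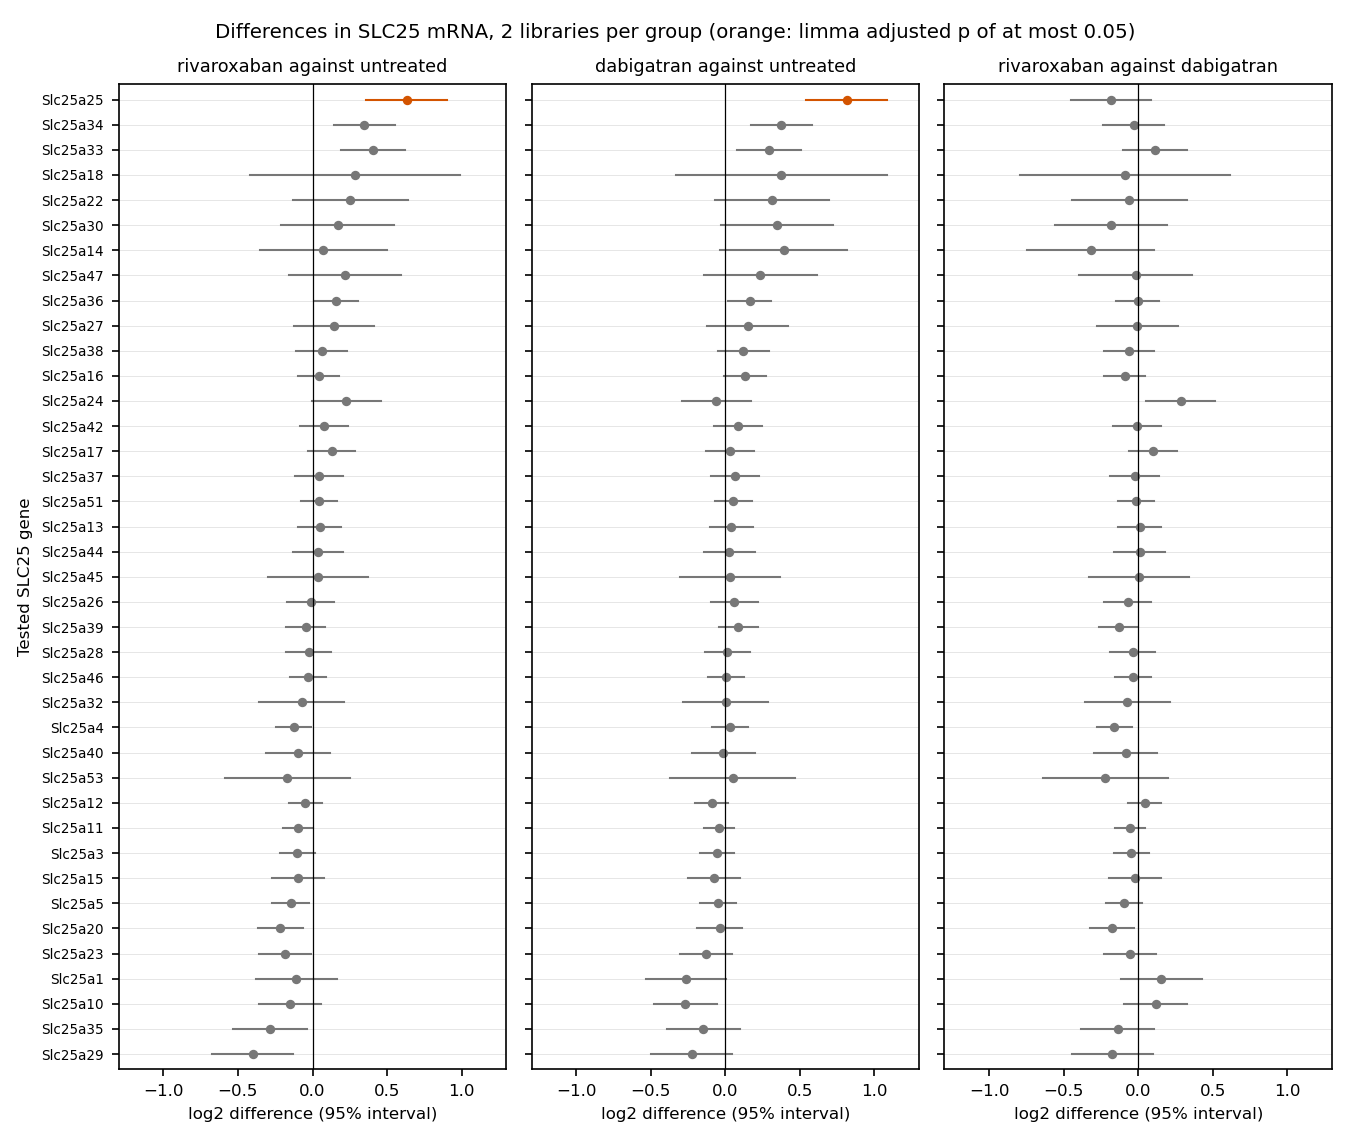
Log2 difference of the tested carriers (point, 1 of the 40 not drawn) with its 95% interval (line) in the 3 comparisons, in 1 order of genes, with orange for a limma adjusted p of at most 0.05. Slc25a25 is the only carrier called, at 0.63 with rivaroxaban and 0.82 with dabigatran, and most other values lie close to 0.

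Rivaroxaban and dabigatran were compared with each other directly, at doses that differ (3 and 10 mg/kg), so the values stand side by side for these doses only. No carrier was called, 3 had an unadjusted p under 0.05 (7.5%, against 8.43% of all genes), and 0.077% of all genes were called, all of them lower with rivaroxaban. The groups did not overlap for 13 carriers (32.5%, against 39.7% of all genes). Of the 40 carriers, 2 were higher and 11 lower with rivaroxaban in this way (5% and 27.5%, against 19.3% and 20.4% of all genes). The median log2 difference, rivaroxaban minus dabigatran, was -0.05 against 0.0011 for all genes, with 9 carriers above and 31 below 0, and 37 of the 40 were within 0.2 of 0.

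For Slc25a25 the log2 difference between the drugs was -0.18 (95% interval -0.45 to 0.09, limma adjusted p = 0.75), so that a difference in either direction is compatible with these libraries. For Slc25a4 it was -0.16 (95% interval -0.28 to -0.04, adjusted p = 0.444) and for Slc25a20 -0.18 (95% interval -0.33 to -0.03, adjusted p = 0.518). Slc25a24 had the highest value at 0.29 (95% interval 0.05 to 0.52, adjusted p = 0.502) and Slc25a14 the lowest at -0.32 (95% interval -0.74 to 0.11, adjusted p = 0.72). For Slc25a34 and Slc25a36 the difference was -0.03 or closer to 0, with intervals of -0.23 to 0.17 and -0.15 to 0.14.

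The proteins around the carriers were described from 6 lists of related genes. Carriers are imported by a dedicated route through the outer membrane translocase, the small chaperones of the intermembrane space and the TIM22 complex of the inner membrane. Of 12 tested genes of this route, 1 was called lower with rivaroxaban, against 0.986% of all genes, and none was called with dabigatran. An unadjusted p under 0.05 was found for 4 of the 12 with rivaroxaban and 1 with dabigatran, against 17.2% and 14.7% of all genes. With dabigatran this was the kinase Agk of the TIM22 complex (log2 difference -0.18, limma adjusted p = 0.254). Differences were below 0 for 11 of the 12 with rivaroxaban and 7 with dabigatran. The median log2 difference was -0.09 with rivaroxaban (0.0050 for all genes) and -0.03 with dabigatran (0.0026 for all genes).

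The gene called lower was Timm22, which encodes the channel that inserts carriers into the inner membrane. It stood at 5.34 and 5.26 log2 CPM in untreated, 4.94 and 5.03 in rivaroxaban and 5.17 and 5.18 in dabigatran libraries. The rivaroxaban pair was lowest, the untreated pair highest and the dabigatran pair between them. It fell by 0.31 on the log2 scale with rivaroxaban (SE 0.07, 0.806 of the untreated level, limma adjusted p = 0.0436), and its difference with dabigatran was -0.12 (adjusted p = 0.446). The call was lost without any of the 4 libraries compared, with adjusted p of 0.226 and 0.0813 without untreated replicates 8 and 9 and of 0.234 and 0.176 without rivaroxaban replicates 14 and 15. It was also lost without the variance trend (adjusted p = 0.167), and the difference between the drugs was -0.19 (adjusted p = 0.506).

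No gene of the other 5 lists passed the limma test with either drug. Of 19 other transporters of the inner membrane, which include the pyruvate carrier and the calcium uniporter, 4 had an unadjusted p under 0.05 with rivaroxaban and 3 with dabigatran, and their median log2 differences were -0.08 and 0.01. The lowest p was that of Sfxn2 with rivaroxaban (log2 difference -0.41, adjusted p = 0.136) and that of Mcub with dabigatran (-0.52, adjusted p = 0.165). The 3 VDAC channels of the outer membrane were below 0 with each drug, with 2 and 0 of them at an unadjusted p under 0.05, and Vdac2 had log2 differences of -0.18 (adjusted p = 0.1) and -0.08 (adjusted p = 0.527), and Vdac3 had -0.17 (adjusted p = 0.132) and -0.09 (adjusted p = 0.492). Of 4 enzymes of the malate-aspartate shuttle, 2 and 0 had an unadjusted p under 0.05, and Got1, the cytosolic aspartate aminotransferase, had -0.18 (adjusted p = 0.1) and 0.02 (adjusted p = 0.914), and Mdh1, the cytosolic malate dehydrogenase, had -0.14 (adjusted p = 0.185) and -0.04 (adjusted p = 0.765).

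In the carnitine shuttle, which works with Slc25a20, 1 of 3 tested genes had an unadjusted p under 0.05 with each drug. Cpt1a, the liver-type palmitoyltransferase of the outer membrane, had log2 differences of 0.41 with rivaroxaban (limma adjusted p = 0.0992) and 0.30 with dabigatran (adjusted p = 0.257), while Slc25a20 had -0.22 and -0.04. The rivaroxaban difference of Cpt1a passed with only the 4 libraries compared (adjusted p = 0.049) and without dabigatran replicate 10 (0.0489) or 12 (0.0491), and was 0.27 without rivaroxaban replicate 15 (adjusted p = 0.55). The dabigatran difference was 0.14 without dabigatran replicate 12 and 0.46 without replicate 10. Carriers of the SLC25 fold that go by another symbol were counted apart, and 4 of 5 were tested, with 1 at an unadjusted p under 0.05 with each drug. Ucp2, an uncoupling protein of many tissues, had 0.30 (adjusted p = 0.217) and 0.21 (adjusted p = 0.435), and the rivaroxaban difference passed at 0.51 without untreated replicate 8 (adjusted p = 0.0392) and was 0.10 without untreated replicate 9 (adjusted p = 0.628). Ucp3, the uncoupling protein of muscle, stood at 6.39 and 5.01 log2 CPM in untreated, 6.13 and 6.86 in rivaroxaban and 6.23 and 7.12 in dabigatran libraries, so that its groups overlapped, with log2 differences of 0.79 (adjusted p = 0.331) and 0.98 (adjusted p = 0.273). The dabigatran difference of Ucp3 ran from 0.29 without untreated replicate 9 to 1.66 without untreated replicate 8.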

How the data were processed

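Poly-A RNA of 6 heart libraries was sequenced. The authors deposited log2 CPM after TMM normalisation, per the file headers. Tools listed by the submitters' processing notes are STAR, Trim Galore, edgeR, bcl2fastq and FastQC, with the build mm10 and no versions. The read counter, its annotation and its use of strand are not given in these sources. Whole reads, recovered from the low values (below 200 steps, 100% were whole within 0.02 reads), gave the read numbers printed.

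Genes with a mean log2 CPM under 0 were left out. One limma-trend fit (limma 3.58.1, R 4.3.3) with 3 group means used all 6 libraries, so that the groups share 1 estimate of the spread. Tests are two-sided, p-values are adjusted over the 12981 genes, the threshold is 0.05 and intervals are 95%. Differences on the log2 CPM scale understate the change of low genes. Exon lengths and positions came from GENCODE M21 (GRCm38), where all 43 carriers were found, and promoter windows from RefSeq (GRCm38.p6).

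The carriers, the related lists, the markers and the motifs were chosen with earlier results of these data known. Carriers were named where called, where among the 6 lowest p-values of a comparison, and, whatever their values, as Slc25a3, Slc25a4, Slc25a5, Slc25a11, Slc25a12 and Slc25a20. In the lists, called genes were named, or else the gene with the lowest p. Slc25a13, Slc25a22, Slc25a23, Slc25a37, Slc25a42, Slc25a46, Slc25a47 and Slc25a51 fall outside this rule and were added, as paralogues, neighbours or class members, after their values were seen. The values of 1 carrier are not reported here. Alternatives were each library left out, fits of only the libraries compared, no variance trend, quantile normalisation, other filters, log2(CPM + 1), and a voom fit of the recovered reads, which was chosen after the data were seen.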

Additional observations from a re-analysis of the deposited data

How the results depend on the processing

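The 66 differences examined were recomputed under 854 alternatives in all, of which 821 kept the direction and the side of the threshold. The counts of carriers called, given next, are not among them. With rivaroxaban the count of carriers called was 1 and became 0 without the variance trend (7 at an unadjusted p under 0.05) and 2 with only the 4 libraries compared, which added Slc25a34. Leaving out 1 library gave 0 to 2: 0 without untreated replicate 8 or rivaroxaban replicate 15, and 2 without untreated replicate 9 (adding Slc25a20), rivaroxaban replicate 14 (adding Slc25a33) or either dabigatran replicate (adding Slc25a34). With dabigatran the count was 1 and became 0 without the trend (5 at an unadjusted p under 0.05), and leaving out 1 library gave 0 to 1, with 0 without untreated replicate 8 or dabigatran replicate 10. Between the drugs it was 0 in every setting, voom included. Over all genes, 319 were called with rivaroxaban and 61 to 410 with 1 library left out, 244 with dabigatran and 73 to 270, and 154 under quantile normalisation, and 10 between the drugs and 0 to 20.

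Signs turned for differences near 0, none of them called. Under quantile normalisation the dabigatran difference became -0.029 for Slc25a4, and that between the drugs 0.0031 for Slc25a34. The dabigatran difference of Mdh1 became 0 there, which has no sign but is not counted as keeping its direction. Leaving out 1 library gave -0.063 to 0.21 for Slc25a14 with rivaroxaban, and -0.15 to 0.071 for Slc25a20 and -0.14 to 0.016 for Slc25a24 with dabigatran. Between the drugs it gave -0.010 to 0.32 for Slc25a1, -0.35 to 0.0046 for Slc25a29, -0.032 to 0.26 for Slc25a33, -0.051 to 0.042 for Slc25a36 and -0.16 to 0.10 for Slc25a34. The cause was not tested. A lone library left in a group is assumed to vary like the other groups. The edgeR and DESeq2 fits planned on recovered reads were not run, and a voom fit of those reads took their place. No paired analysis was possible because the groups share no replicate number. With 2 libraries a group, differences of low carriers, such as Slc25a18 (SD 0.55 in untreated), could not be measured closely.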

Other observations

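Replicates differed most for a few carriers, which were singled out after their values were seen. Slc25a22, a glutamate carrier, stood at 6.36 and 5.72 log2 CPM in untreated replicates 8 and 9, 6.12 and 6.47 in the rivaroxaban and 6.23 and 6.48 in the dabigatran libraries, so that untreated replicate 9 was the lowest of the 6. Ucp3 was also lowest in untreated replicate 9, at 5.01 log2 CPM against 6.39 in replicate 8. For comparison, the median SD between replicates over the tested carriers was 0.0655 in untreated, 0.0604 in rivaroxaban and 0.0568 in dabigatran libraries.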
